A study of Homo sapiens with 12 samples.

Results

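The human 45S ribosomal DNA (rDNA) repeat was examined in 2 lists of ChIP-seq peaks, one for REXO4-D386A and one for RNaseH1-D210N. A peak was a member if it lay on the scaffold chr22_KI270733v1_random, on the scaffold chrUn_GL000220v1, or on chromosome 21 (hg38) between 8150000 and 8500000 or between 8950000 and 9000000. By that rule 79 of the 1460 REXO4 peaks (5.41%) and 138 of the 54623 RNaseH1 peaks (0.253%) were members, 217 of 56083 in all. The rule used positions only, and not the height or overlap of a peak.

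The libraries were made from the human osteosarcoma cell line U2OS. One stable tet-on line expressed Flag-tagged, nuclease-dead REXO4-D386A on addition of doxycycline, and the other RNaseH1-D210N. Each line was kept with doxycycline at 1 µg/ml or without it for about 60 h. Each condition had 2 Flag ChIP libraries and 1 input library, 12 libraries in 8 groups. The mutant proteins were expressed from a transgene in cells that also carry their own genes for both enzymes, and the labels do not say whether a line is 1 clone. The 2 lists analysed here hold called peaks with no value per library, and the sources used here do not give which libraries entered each list. There was therefore no replicate error, no comparison of doxycycline with its absence, and no test; intervals below cover counting error only.

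Ribosomal DNA is transcribed by RNA polymerase I (Pol I) in the nucleolus. The precursor, the 45S or 47S RNA, holds in order the 5′ external spacer, 18S, internal spacer 1 (ITS1), 5.8S, internal spacer 2 (ITS2), 28S and the 3′ external spacer, and the spacers are removed to leave the mature rRNAs. Repeats stand in tandem, parted by a long intergenic spacer, and the nascent RNA can pair with its template as an R-loop, an RNA:DNA hybrid with a displaced DNA strand. RNaseH1 cuts the RNA of such hybrids, and REXO4 belongs to the DEDD family of 3′ to 5′ exonucleases. An enzyme that binds but cannot cut can be used in ChIP to map where it sits.

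The windows hold 8 copies or partial copies of the unit. Of these, 5 are annotated by RefSeq (GRCh38.p14): RNA45SN2 (chr21:8205988-8219302), RNA45SN3 (chr21:8389035-8402343), RNA45SN1 (chr21:8433222-8446572), RNA45SN4 (bases 122273 to 135645 of the chromosome 22 scaffold) and RNA45SN5 (bases 105424 to 118780 of the unplaced scaffold). The table used here names no scaffold for the last 2 genes, which it lists under chromosome 22 and under an unknown chromosome; they were placed on the rule's 2 scaffolds from general knowledge of hg38, and the fit of the peak blocks was seen when this was settled. The likeness of edges given below is therefore no independent check of it. Every value for RNA45SN4, RNA45SN5, RNA18SP4 and RNA18SP3 rests on that placement. The remaining 3 copies carry 18S, 5.8S and 28S genes labelled as pseudogenes and are called here by their 18S pseudogene, RNA18SP5, RNA18SP4 and RNA18SP3. Their unit starts were projected from the distance between the 45S start and 18S in the annotated copy on the same sequence, and their sequence stops within 28S. The copies are near-identical, so that many reads fit several of them; the sources used here do not say how such reads were assigned. Copies are therefore not replicates of each other, and a value given for a copy is that of the reads placed there.

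Annotated microRNA genes mark fixed places on the repeat, before the 45S start or in the 5′ external spacer, and RefSeq gives a sequence for some of them. No sequence of the peaks themselves was at hand, so the GC share of the peaks was not measured. MIR6724 genes lie before the 45S start, from 673 to 694 bp upstream, and both lists had a peak over each of MIR6724-1, MIR6724-2, MIR6724-3 and MIR6724-4. The hairpin of MIR6724-2 (chr21:8249505-8249596, plus strand, GC 83.7%) is printed below with the letters GUCGAC in capitals. In DNA letters, GTCGAC, these are the centre of the box bound by TTF1, the Pol I terminator protein; the letters read the same on both strands and the search used no other motif.
MIR6724-2 hairpin: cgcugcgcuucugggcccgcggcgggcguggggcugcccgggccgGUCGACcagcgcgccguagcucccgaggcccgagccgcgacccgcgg
The letters stood in 4 of the 1562 hairpins in the RefSeq table (0.256%) and in 473 of 35116 promoter windows (1.35%). The 4 include the identical hairpins of MIR6724-2 and MIR6724-4, which are not separate sequences. Hairpins had a median length of 80 bases and promoter windows were not matched to them in length, so these shares are not comparable. A match in these letters is a description of the sequence and not a measured binding site.

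Further downstream, MIR3648 and MIR10396 genes lie inside the 5′ external spacer. The mature sequences are printed with the seed, bases 2 to 8, in capitals.
hsa-miR-6724-5p: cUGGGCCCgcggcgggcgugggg
hsa-miR-3648: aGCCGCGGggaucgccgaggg
hsa-miR-10396a-5p: gGCGGGGCucggagccggg
hsa-miR-10396b-5p: cGGCGGGGcucggagccggg
hsa-miR-10396a-3p: gGCCCCGGgcccucgaccggg
hsa-miR-10396b-3p: gGCCCCGGgcccucgaccggac
Only the last 2 share a seed, GCCCCGG. MIR10396B starts 3102 bp into RNA45SN1, and MIR10396A sits at the matching place in a lone fragment of the repeat near 8.99 Mb described further on. RefSeq sequences matched 5 of the 8 microRNA genes in the windows.

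Both lists covered most of the transcribed unit and a smaller share of the intergenic spacer. In the 5 annotated copies REXO4 peaks covered 93.9% of the bases of the transcribed unit and RNaseH1 peaks 88.1%. Of their intergenic spacer bases, REXO4 peaks covered 15.8% and RNaseH1 peaks 30.7%, with the spacer of RNA45SN1 counted to the edge of the window. Beyond 15 kb from the 45S start, 104 of 239 spacer bins of 100 bp were free of REXO4 peaks in every annotated copy, and 65 of 239 were free of RNaseH1 peaks. By summit, 25 REXO4 members (31.6%, exact binomial 95% interval 21.6 to 43.1) lay in the transcribed unit, 52 in the intergenic spacer, 1 on the promoter side (the 2 kb before the start) and 1 outside any copy. For RNaseH1 36 members (26.1%, 19.0 to 34.2) lay in the transcribed unit, 84 in the spacer, 5 on the promoter side and 13 outside copies. Peaks over the unit were wide, with a median width of 4189 bp for REXO4 and 1781.5 bp for RNaseH1.

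**Figure D1:**
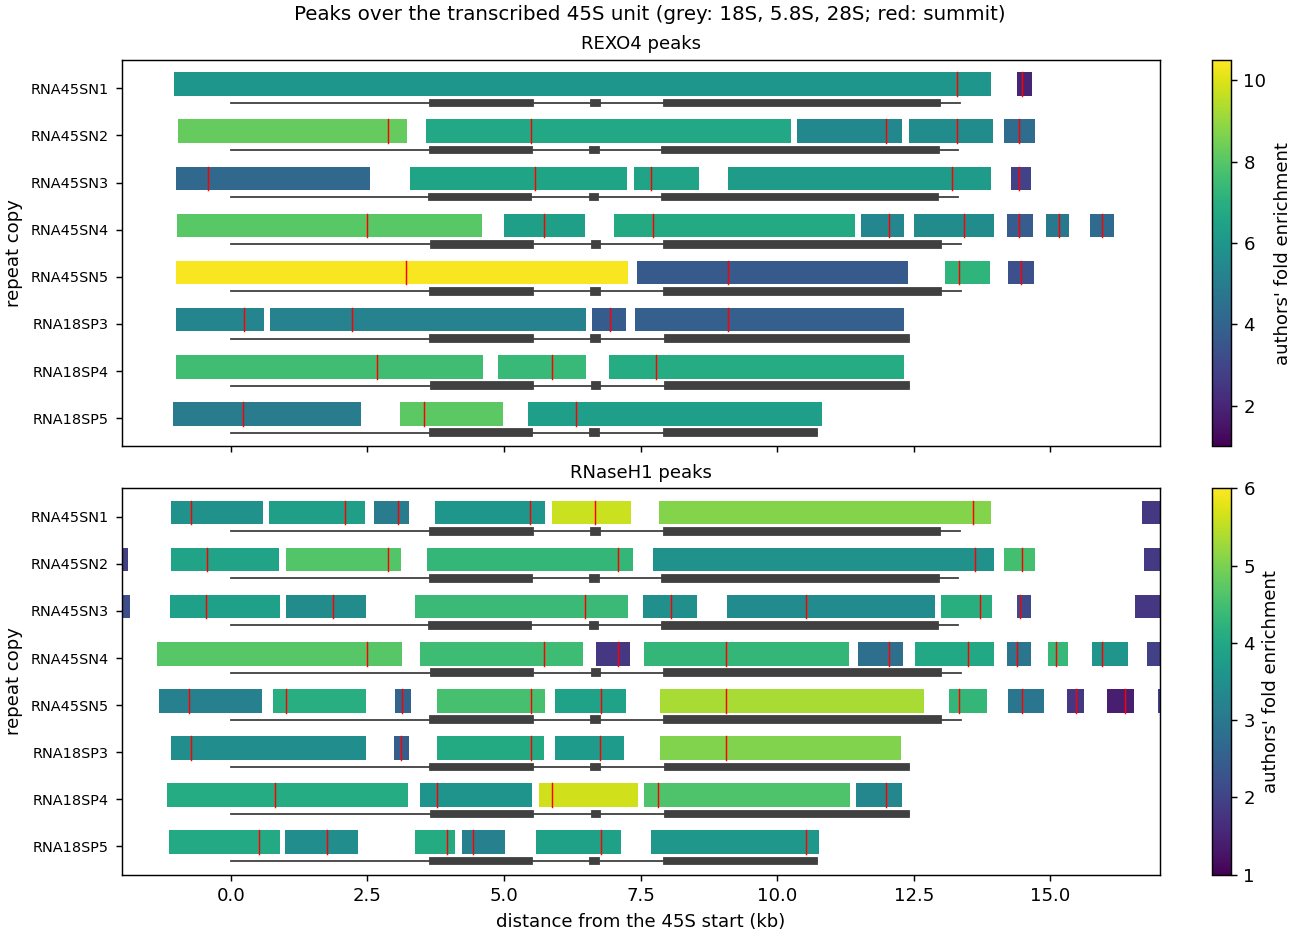
Peaks of each list over the transcribed unit of the 8 copies, by distance from the 45S start in kb. Boxes are peaks coloured by the authors' fold enrichment, red lines are summits and dark bars are 18S, 5.8S and 28S; blocks of peaks start about 1 kb before the unit in each copy, and RNaseH1 peaks leave 2 shared gaps, near 3.3 kb and 7.5 kb.

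The block of peaks had nearly the same edges in every annotated copy. It began 972 to 1032 bp before the 45S start in the REXO4 list and 1086 to 1347 bp before it in the RNaseH1 list. It ended 548 to 641 bp after the end of the unit for REXO4 and 485 to 649 bp after it for RNaseH1. All 10 bins of the last 1 kb before the start were covered in 5 of 5 copies in both lists. From 5 kb to 2 kb before the start, 0 of 30 bins held a REXO4 peak in any annotated copy, whereas 21 of 30 bins held an RNaseH1 peak in 1 or 2 copies. The starting edge was alike in the 3 pseudogene-labelled copies, at 995 to 1056 bp for REXO4 and 1103 to 1165 bp for RNaseH1.

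Among the parts of the unit, REXO4 summits in the 5′ external spacer had the highest median fold. Fold is the authors' fold enrichment, the pileup of ChIP fragments at the summit over the caller's expected pileup. Each peak has a single summit and wide peaks span several parts, so a part without a summit in a copy has no value there. The median was 7.81 for the 8 summits in the 5′ external spacer (4.96 to 10.4), 6.44 for the 4 in ITS1, 6.62 for the 4 in ITS2, 6.09 for the 4 in the 3′ external spacer and 4.59 for the 4 in 28S. The only REXO4 summit in 18S had a fold of 6.71, and no summit fell in 5.8S, the shortest part. The ranges of the parts overlapped: the lowest summit in the 5′ external spacer (4.96) was under the highest in 28S (5.42). RNaseH1 medians were 3.80 for the 5′ external spacer (n = 11), 3.84 for 18S (n = 6), 4.45 for ITS1 (n = 3), 3.89 for ITS2 (n = 5) and 3.59 for 28S (n = 8). The 2 RNaseH1 summits in 5.8S had folds of 3.73 and 5.61, with the highest median of the unit (4.67), and the only one in the 3′ external spacer had 4.31.

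**Figure D2:**
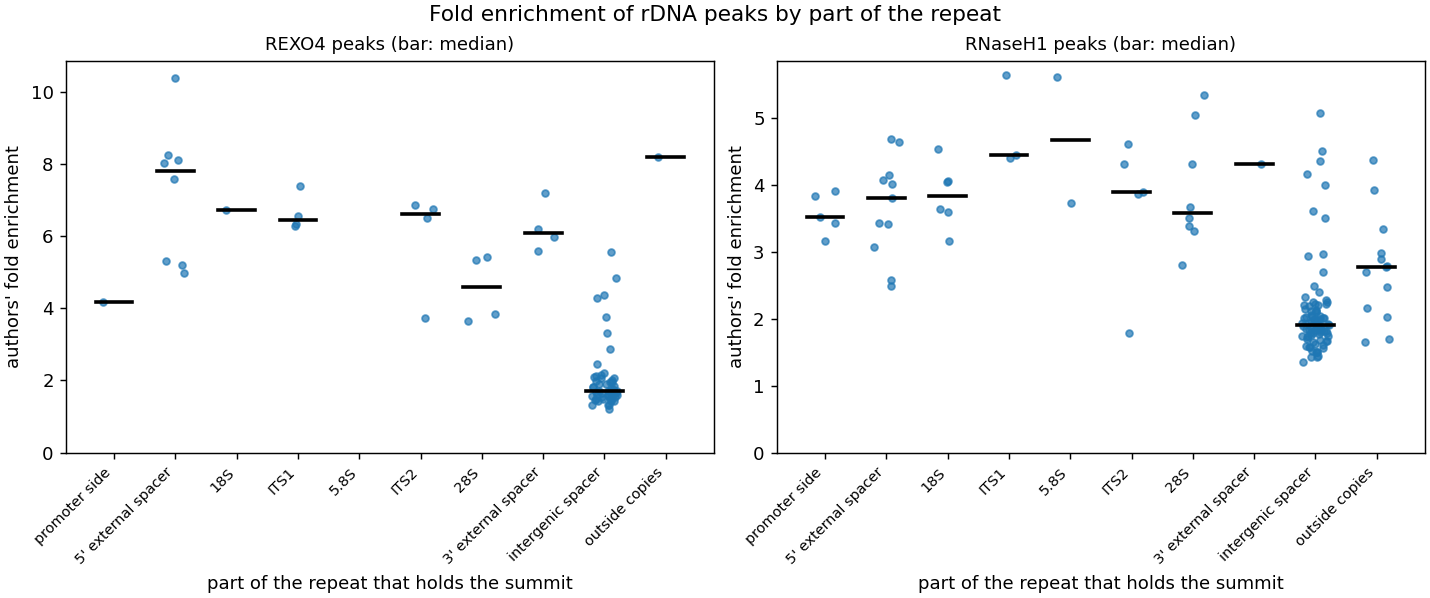
Authors' fold enrichment of each member peak (points) by the part of the repeat that holds its summit, with the median as a bar, for each list on its own axis from 0. The REXO4 median is 7.81 in the 5′ external spacer and 1.71 in the intergenic spacer; for RNaseH1 the same medians are 3.80 and 1.90.

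Peaks of the intergenic spacer were lower. The median REXO4 fold was 6.32 in the transcribed unit (3.66 to 10.4) and 1.71 in the spacer (1.22 to 5.57), and 5 of 52 spacer peaks reached the lowest fold of the unit. The median RNaseH1 fold was 3.95 in the unit (1.78 to 5.63) and 1.90 in the spacer (1.35 to 5.07); here 58 of 84 spacer peaks reached the lowest fold of the unit, a single ITS2 peak of RNA45SN4, and 10 of 84 reached the next lowest, 2.48. Spacer peaks with their summit within 16 kb after the 45S start reached 5.57 for REXO4 (n = 8) and 5.07 for RNaseH1 (n = 11). Some of these peaks also overlapped the end of the unit. The further 44 REXO4 and 73 RNaseH1 spacer peaks reached at most 2.46 and 2.70. The expected pileup at the summit moved with the part as well. Its median in the REXO4 list was 583 fragments in the unit and 251 in the spacer, and in the RNaseH1 list 287 and 321. Over the whole lists the median expected pileup was 36.6 fragments for REXO4 and 7.14 for RNaseH1, against 310 and 307 over the members. The part of the expected pileup in the difference between unit and spacer was not tested.

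By copy, the highest REXO4 fold stood at RNA45SN5, at 10.4 (10.0 to 10.8, 3180 fragments against 305 expected), with its summit 3202 bp into the unit. RNA45SN2 reached 8.26 (8.08 to 8.44, 8402 fragments against 1016) and RNA45SN4 8.02 (7.87 to 8.18, 10287 against 1281). These 2 copies did not differ beyond their counting intervals. RNA45SN3 reached 6.55 (6.36 to 6.74) in ITS1 and RNA45SN1 5.98 (5.83 to 6.13) in the 3′ external spacer. The copy with the highest fold thus had the lowest expected pileup of the 5. In RNA45SN1 a single REXO4 peak of 14943 bp (chr21:8432190-8447132) spanned the whole unit, the widest peak of the entire list. The pseudogene-labelled copies reached 8.11 at RNA18SP5, 7.59 at RNA18SP4 and 5.32 at RNA18SP3.

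**Figure D3:**
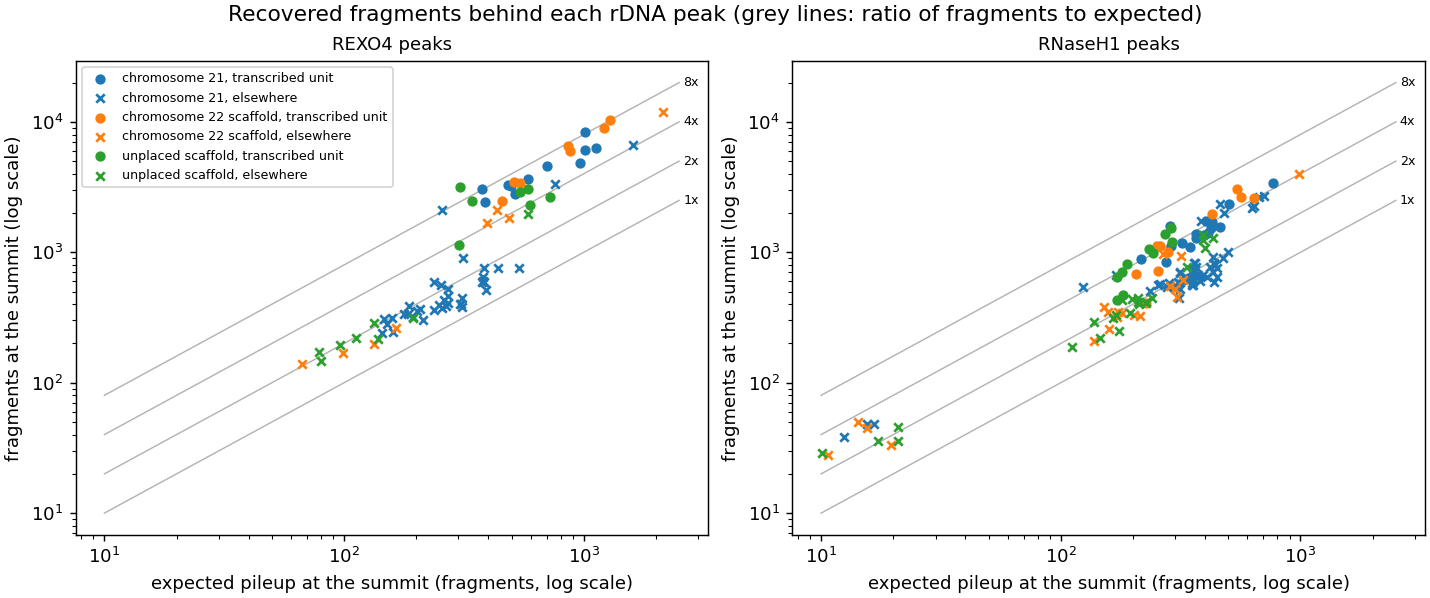
Fragments at each summit against the expected pileup, both on log scales, for the members of each list, with circles for the transcribed unit, crosses for elsewhere and colours for the sequence that holds the peak. Grey lines mark ratios of 1, 2, 4 and 8; the REXO4 peak at 3180 fragments against 305 is the highest in fold.

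The highest RNaseH1 folds by copy lay between 4.06 and 5.63. RNA18SP4 had 5.63 (5.43 to 5.84) in ITS1, RNA45SN1 5.61 (5.33 to 5.89) in 5.8S and RNA45SN5 5.34 (5.08 to 5.61) in 28S, with overlapping intervals. RNA18SP3 followed at 5.04, RNA45SN4 at 4.69, RNA45SN2 at 4.64, RNA45SN3 at 4.39 and RNA18SP5 at 4.06. The order of the copies was not that of REXO4: RNA45SN1 was lowest of the 5 annotated copies for REXO4 and, with an interval that overlaps that of RNA45SN5, highest of them for RNaseH1. By the peak of highest −log10 q in each copy the RNaseH1 fold of RNA45SN1 was 5.07, below RNA45SN5. The widest RNaseH1 peak of the whole list, 6228 bp, lay over 28S of RNA45SN2 (chr21:8213724-8219951).

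RNaseH1 peaks were missing from 2 stretches of the unit in all 8 copies. The first ran from 3295 to 3366 bp after the 45S start, near the end of the 5′ external spacer, and the second from 7449 to 7551 bp, in ITS2. RNaseH1 peaks covered 64.8% of ITS2 in the annotated copies, against 97.8% of 18S and 94.9% of 28S. REXO4 peaks covered 90.4% of ITS2, and no stretch of the unit lacked a REXO4 peak in every copy that reaches it. The most copies without one was 5 of the 7 that reach 12399 bp, in 28S, over 8 bases. The 5 include RNA18SP4 and RNA18SP3, where the stretch without a peak ran to the end of the copy's own sequence. Copies differ by small insertions, so a distance from the start is not exactly the same base in each copy. Whether reads can be placed equally well in these stretches was not tested.

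Beyond the unit, a separate REXO4 peak stood about 1.1 kb past the end of all 5 annotated copies, with summits 1056 to 1127 bp after it. Its fold was 4.37 at RNA45SN2, 3.76 at RNA45SN4, 3.32 at RNA45SN5, 2.87 at RNA45SN3 and 1.96 at RNA45SN1. The RNaseH1 list had a peak at the same place in 4 of the 5, with 4.50 at RNA45SN2, 2.97 at RNA45SN5, 2.94 at RNA45SN4 and 2.13 at RNA45SN3, and none at RNA45SN1. The region after the unit is where Pol I terminates. RNA45SN4 had 2 more peaks close by in both lists, with REXO4 folds of 4.85 and 4.27 and RNaseH1 folds of 4.35 and 3.61.

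Many spacer peaks stood at like distances in other copies, more of them in some copies than in others. Of the 52 REXO4 spacer summits in annotated copies, 37 (71.2%) lay within 200 bp of the distance of a spacer summit of another annotated copy, and 53 of 75 RNaseH1 summits (70.7%) did so. The share that summits placed at random would reach was not worked out, so no excess over it can be read here. For RNaseH1 this held for 13 of 14 summits in RNA45SN2 and in RNA45SN3, 11 of 15 in RNA45SN1, 8 of 15 in RNA45SN5 and 8 of 17 in RNA45SN4. For REXO4 it held for 9 of 12 in RNA45SN2, 12 of 14 in RNA45SN3, 7 of 10 in RNA45SN1, 5 of 8 in RNA45SN5 and 4 of 8 in RNA45SN4. In the 3 annotated chromosome 21 copies, REXO4 summits stood at 17961, 18010 and 18016 bp from the start of RNA45SN2, RNA45SN3 and RNA45SN1, with folds of 1.57, 1.59 and 1.72. RNaseH1 summits stood close by at 17948, 18046 and 18003 bp, with folds of 2.01, 2.05 and 1.90. The part of reads shared among the copies in this likeness was not tested. REXO4 covered no spacer bin past 15 kb in all 5 annotated copies, and RNaseH1 covered 14 of 239.

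**Figure D4:**
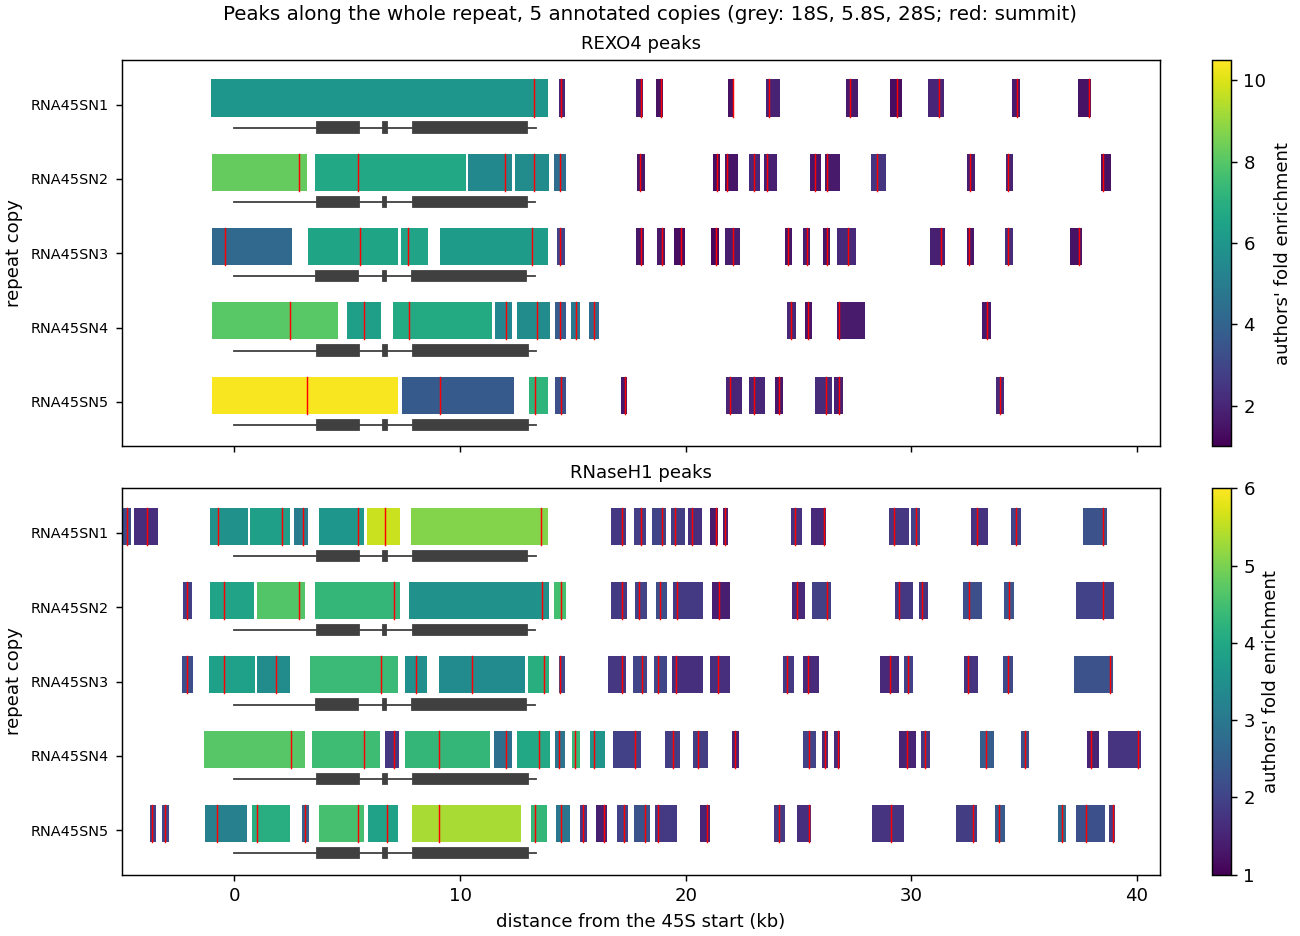
Peaks of each list along the whole repeat in the 5 annotated copies, by distance from the 45S start in kb, coloured by the authors' fold enrichment with summits in red. Spacer peaks are narrow and low beside those of the transcribed unit, and several recur at like distances, such as those near 18 kb in the 3 copies of chromosome 21.

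**Figure D5:**
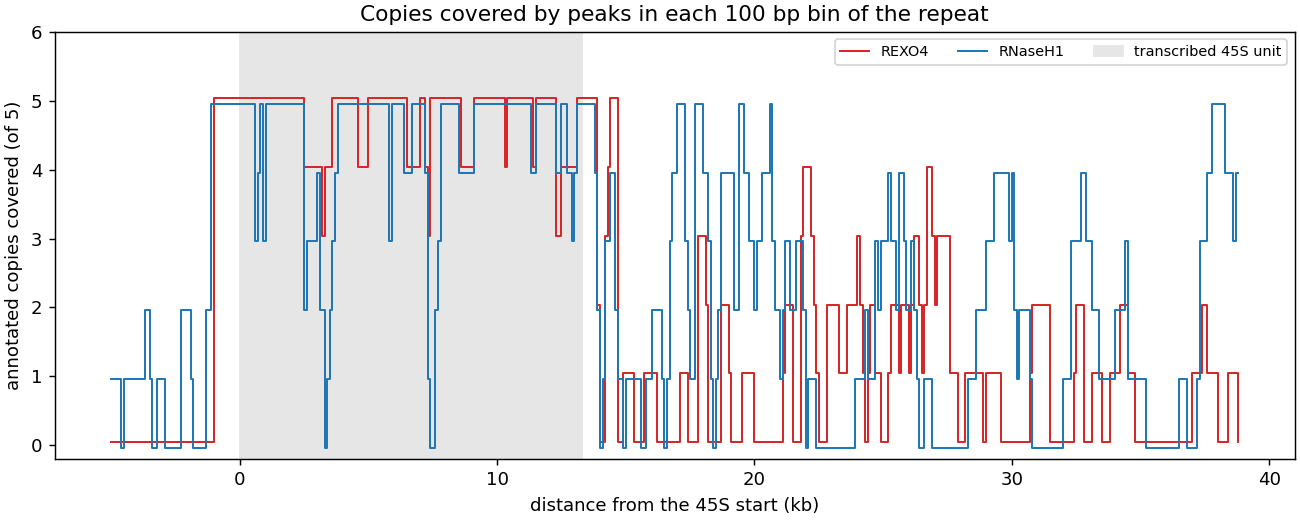
Number of the 5 annotated copies covered by a peak in each 100 bp bin of the repeat, for each list, with the transcribed unit shaded and the lines set slightly apart. REXO4 covers 96 of 133 bins of the unit in all 5 copies and RNaseH1 93 of 133, and RNaseH1 drops to 0 copies near 3.3 kb and 7.5 kb.

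The lists were also compared by overlap of at least 1 bp. Of the REXO4 members 64 of 79 (81.0%, 70.6 to 89.0) overlapped an RNaseH1 peak, against 71.5% of all REXO4 peaks. That background value lies inside the interval, so the count is not set apart from the list. Of the RNaseH1 members 80 of 138 (58.0%, 49.3 to 66.3) overlapped a REXO4 peak, against 2.03% of all RNaseH1 peaks. All 25 REXO4 and all 36 RNaseH1 peaks with their summit in the transcribed unit overlapped a peak of the other list. Wide peaks of both lists cover most of the unit, so an overlap of 1 bp there was close to fixed beforehand. In the spacer 37 of 52 REXO4 peaks (71.2%) and 37 of 84 RNaseH1 peaks (44.0%) did so. Where spacer peaks were shared, their summits lay a median of 45 bp from the nearest summit of the other list, and 81.1% within 200 bp. Over shared peaks elsewhere in the genome the median was 112.5 bp for REXO4 and 120 bp for RNaseH1, with 70.9% and 67.6% within 200 bp; the difference was not tested. Among the wide peaks of the unit the median was 291 bp from the REXO4 side and 905.5 bp from the RNaseH1 side. The closest pairs of the unit lay in the 5′ external spacer, at 2877 and 2874 bp in RNA45SN2 and at 2485 and 2488 bp in RNA45SN4. Other parts held pairs nearly as close, such as 5736 and 5740 bp in ITS1 and 12042 and 12048 bp in 28S of RNA45SN4.

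A lone fragment of the repeat on chromosome 21 had peaks in both lists. The REXO4 peak chr21:8986787-8988661, which covers MIR3648-2 and MIR10396A, had a fold of 8.18 (7.84 to 8.54, 2105 fragments against 256). Projected onto the unit it spans 2273 to 4147 bp from the 45S start, with its summit at 2690 bp. The RNaseH1 list had 2 peaks there, with folds of 3.92 and 4.36, and the stretch between them, 3009 to 3376 bp when projected, took in the first gap of the full copies. The other 11 RNaseH1 members outside copies had 28 to 50 fragments at the summit, and none overlapped a REXO4 peak.

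The rule's edges on chromosome 21 fell in sparse ground. The first RNaseH1 member inside 8150000 began at 8197368 (fold 2.77) and the nearest peak before the edge ended at 8132070 (3.63). The last member before 8500000 ended at 8471912 (2.25), and the next peak began at 8549853 (3.03). For REXO4 the nearest peaks outside lay at 6897254 (3.29) and 11902579 (6.69).

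Genes of the Pol I machinery lie elsewhere in the genome, and the lists hold unequal numbers of peaks, so each was set against its own background. None of REXO4's peaks came within 1 kb of either boundary of such genes, 0 of 26, against 3.82% of protein-coding genes. For 26 genes that count is near the background share, so no avoidance of these genes can be read from it. RNaseH1 peaks stood at 24 of 26 (92.3%), against 67.1% of protein-coding genes. They included POLR1G (4.42), POLR1C (3.78) and POLR2K (3.87), which encode polymerase subunits, and TBP (3.94), which is part of the promoter factor SL1. POLR1H and BAZ2A, whose product belongs to the nucleolar silencing complex NoRC, had none. The 5S rRNA genes, transcribed by RNA polymerase III from their own array on chromosome 1, had a REXO4 peak at 11 of 17, against 1.51% of other small noncoding and rRNA genes. The highest were RNA5S16 (2.48), RNA5S1 (2.43), RNA5S15 (2.37) and RNA5S2 (2.23). RNaseH1 peaks stood at 17 of 17, against 25.6%, with RNA5S4 at 9.74, RNA5S14 and RNA5S15 at 8.53 from 1 shared peak, and RNA5S6 at 8.03. The 5S genes are near-identical too, so their reads can be shared. Of 23 pseudogenes of 18S, 5.8S or 28S elsewhere in the genome, chosen after their values were seen, 0 had a REXO4 peak within 1 kb, against 0.391% of other pseudogenes. An RNaseH1 peak stood at 3 of 23 (13.0%), against 9.96%: RNA28SP (2.73), LOC110467521 (4.45) and LOC110467538 (2.95). For 23 pseudogenes the counts of both lists are near the background shares and are no result about these pseudogenes.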

How the data were processed

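Flag ChIP and input DNA were sequenced from the 12 U2OS libraries described above. The submitters' processing notes name MACS2 2.1.0.20150731, HISAT2 2.2.1, SAMtools 1.17, Trim Galore 0.6.10, deepTools 3.5.1, Cufflinks and the build hg38. The deposited lists give each peak a fold ratio at the summit, a −log10 p-value and −log10 q-value, and a score; all are the authors' values, used only within their own list. The deposited score was not used. The sources used here do not give whether replicates were pooled, which control was used or how multiply mapped reads were handled. 1 REXO4 and 2 RNaseH1 members had q above 0.05.

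Coordinates are 1-based. Peaks were placed by summit against RefSeq genes. Fragments and the expected pileup were recovered from fold and p as the whole number that gives both (79 of 79 and 138 of 138 members within 0.05 of a whole number); intervals are exact 95% Poisson, with the expected pileup taken as fixed. Shares have exact binomial (Clopper-Pearson) intervals that treat peaks as independent, which shared reads breach. Total depth per library was not analysed here. Recovery, placement and overlap were tested on simulated data. Scripts ran in Python 3.11.15 with pandas 2.3.3, SciPy 1.17.1, NumPy 2.4.6 and, for plots, matplotlib 3.10.9.

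The members and gene lists were chosen with earlier results of these data known. The rule for named items took every rRNA and microRNA gene or rRNA pseudogene in the windows, the peaks of highest fold and −log10 q per copy, the 5 highest members outside copies, and up to 4 genes of highest fold per gene list and peak list. Recurrent sites, gaps and edges were chosen after their values were seen. Alternatives were other placements, overlaps, a −log10 q of at least 5 and other promoter sizes.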

Additional observations from a re-analysis of the deposited data

How the results depend on the processing

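Of 42 alternatives, 40 left the value within its interval (for counts, within 1.5 times). Several of the 40 could not move, so the count is no measure of robustness. They are the covered share, the REXO4 promoter sizes, and copies where the same peak had the highest fold and the highest −log10 q. The interval of the difference in median fold came from the spread of the unit's folds alone. The 2 alternatives that left the interval took the fold of the peak with the highest −log10 q in place of the highest fold. The RNaseH1 value was then 5.07 at RNA45SN1 and 3.99 at RNA45SN4, both from a peak across the end of the unit. A −log10 q of at least 5 left 73 REXO4 and 131 RNaseH1 members and the covered share of the unit as it was. That share could not change, because the lowest −log10 q of a summit in the unit was 286 for REXO4 and 22.8 for RNaseH1. Apart from the 2 RNaseH1 values above, the peak of highest −log10 q in an annotated copy was also that of highest fold. Other promoter sizes left the REXO4 difference in median fold between unit and spacer at 4.61. That too was fixed beforehand: the only REXO4 summit before a 45S start stood at -424 bp, on the promoter side at every size used. For RNaseH1 the difference was 2.05 with a promoter side of 1 kb and 2.06 with 5 kb. The Pol I and 5S gene counts had no alternative. No paired analysis was possible because the lists hold no value per library. Leaving out a replicate was not possible for the same reason. Summits in RNaseH1 peaks outside copies rest on as few as 28 fragments, which leaves wide intervals, and shared reads limit what a single copy can show.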

Other observations

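Pseudogenes and low peaks gave further values, chosen after they were seen. CDC27 pseudogenes lie in the intergenic spacers of the chromosome 21 copies. CDC27P10 had 4 peaks in each list, with highest folds of 2.21 for REXO4 and 2.1 for RNaseH1. CDC27P9 had 1.91 and 2.32, and CDC27P11 1.68 and 2.00. Among RNaseH1 members outside copies, the 5 highest folds were the 2 peaks of the chromosome 21 fragment given above, and 3.34, 2.97 and 2.89 at peaks of 50, 48 and 38 fragments.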
